A study of Homo sapiens with 18 samples.

Results

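The NRF2 oxidative stress target genes examined here were 9 genes chosen by name: NFE2L2, which encodes the transcription factor NRF2 itself, and its targets HMOX1, NQO1, GCLM, GCLC, TXNRD1, SRXN1, SLC7A11 and OSGIN1. All 9 were in the deposited table, with 69 of its 145326 transcripts, and the values of each gene's transcripts were summed, giving 9 of 32490 gene names. RNA was measured in 18 samples of spheroidal aggregates, 3 for each combination of cell line (U87mg, an established human glioblastoma line, or DAOY, an established human desmoplastic cerebellar medulloblastoma line) and time (0, 2 or 8 h) in a direct-current electrical field (dcEF) of 250 V/m. All aggregates were embedded in a gel of Growth-Factor-Reduced Matrigel and culture medium and kept in the electrotaxis channel for 24 h first, so the 0 h controls shared the gel and the channel. Each sample pooled 3 channels, each group stood for a single cell line, and no aggregates kept unexposed for 2 or 8 h were analysed here, so the field and the added time in the channel cannot be told apart. The samples were biological replicates according to the study's methods, and p-values measure the spread between them. Those methods state that replicates were selected by quality control, 3 for each group, so this spread is that of selected samples. In bulk RNA, fewer cells of a kind and less RNA per cell cannot be told apart either. In GENCODE 29 on GRCh38, HMOX1 (chr22:35380361-35394214), TXNRD1 (chr12:104215779-104350305) and OSGIN1 (chr16:83948282-83966332) lie on the plus strand. NFE2L2 (chr2:177227595-177392697), NQO1 (chr16:69706996-69726951), GCLM (chr1:93885205-93909456), GCLC (chr6:53497341-53616970), SRXN1 (chr20:646615-653370) and SLC7A11 (chr4:138164097-138242349) lie on the minus strand.

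NRF2 is held at a low level in unstressed cells by KEAP1, which presents it to a ubiquitin ligase for degradation. Oxidants and electrophiles modify KEAP1, NRF2 then accumulates, pairs with a small MAF protein (MAFF, MAFG or MAFK) and binds the antioxidant response element, while the repressor BACH1 competes for the same element, above all at HMOX1. The targets rebuild the reducing capacity of the cell: they make glutathione, import cystine, reduce thioredoxin and peroxiredoxins, break down haem and reduce quinones. Because NRF2 is controlled mainly through its stability, the mRNA of NFE2L2 is not a measure of NRF2 activity.

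Promoter sequences are shown because the element that NRF2 reads is what these genes have in common by function. RefSeq promoters on GRCh38.p14 were matched for 7 of the 9 genes, all but HMOX1 and SLC7A11, in 9 windows of 250 bases before a start site, and were searched on both strands for the core of the element, TGACNNNGC. The letters were found in 3 windows of 2 genes, 1 of GCLM and both of TXNRD1, and in 10.9% of all 35116 windows of this length. The excerpts are written 5′ to 3′ on the strand of the gene with the 9 letters of the core in capitals, which in GCLM and in the second TXNRD1 window are the reverse complement of the core.
GCLM, chr1:93909446-93909474, minus strand: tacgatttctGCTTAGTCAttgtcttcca
TXNRD1 upstream start, chr12:104215670-104215698, plus strand: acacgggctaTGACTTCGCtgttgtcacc
TXNRD1 downstream start, chr12:104286920-104286948, plus strand: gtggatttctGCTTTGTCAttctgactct
The core began 34 bases before the start of GCLM and 99 and 102 bases before the starts of TXNRD1, and in no case did it overlap the AP-1 site (TGACTCA or TGAGTCA), whose letters were in 4.2% of all windows. The last excerpt lies within the first exon of TXNRD1 transcripts that start further upstream. These matches are letters, not measured binding. Only the 250 bases before a start were searched, so a window without the letters does not show that the gene lacks the element.

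The libraries held 8341976 to 15610886 estimated counts, of which 2.83% to 8.44% came from mitochondrial genes. CPM below means the count scaled by the library total and TMM and compares samples for a given gene, whereas TPM is also per transcript length and is used to compare genes. Of the 9 astroglial and glioma markers looked for, S100B, AQP4 and SOX2 stayed under 1 TPM in every U87mg library, and GFAP, S100B and NES in every DAOY library. Of the 8 cerebellar granule precursor and medulloblastoma markers, ATOH1, BARHL1, NEUROD1 and GLI1 stayed under 1 TPM in every DAOY library. The leukocyte marker PTPRC and the endothelial markers CDH5 and VWF were under 1 TPM in all libraries of both lines. The other 3 of the 6 immune and endothelial markers reached 1 TPM in each line. CD68 ran from 247 to 602 TPM in U87mg and 10.8 to 43.9 in DAOY, CSF1R from 2.31 to 12.1 and 0.42 to 3.87, and PECAM1 from 0.60 to 2.30 and 5.46 to 12.9. In each line, 6 of the 9 astroglial and glioma markers and 4 of the 8 cerebellar and medulloblastoma markers reached 1 TPM.

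The level of the NRF2 targets without the field was examined first, since both lines might start from different positions. In U87mg, NQO1, which reduces quinones, was the most abundant of the 9 with 711 ± 223 TPM (SD, n = 3). TXNRD1, the cytosolic thioredoxin reductase, followed with 306 ± 80.3 TPM, and NQO1 and TXNRD1 did not overlap. NFE2L2 (129.8 ± 15.9 TPM) and GCLM (106 ± 11.4 TPM) overlapped each other and stood above HMOX1 (66.2 ± 19.6 TPM), GCLC (62.4 ± 8.93 TPM) and SRXN1 (52.1 ± 8.77 TPM), which overlapped as neighbours. The lowest were SLC7A11 with 22.0 ± 7.34 TPM and OSGIN1 with 18.5 ± 10.3 TPM, whose ranges overlapped. In DAOY the order was TXNRD1 (247 ± 154 TPM), GCLM (244 ± 103 TPM), NQO1 (234 ± 257 TPM) and NFE2L2 (205 ± 39.6 TPM), which overlapped as neighbours. GCLC came next with 101 ± 45.7 TPM. Its range, 74.7 to 154 TPM, was clear of NFE2L2 (160 to 236 TPM) and overlapped TXNRD1, GCLM and NQO1. SRXN1 (69.0 ± 49.9 TPM), HMOX1 (19.4 ± 20.4 TPM), SLC7A11 (10.6 ± 9.0 TPM) and OSGIN1 (3.04 ± 1.58 TPM) followed, each within the range of its neighbour. An SD above the mean, as for NQO1 and HMOX1 in DAOY, came from 1 library that is described below.

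Of the 9 genes, 6 differed between the lines at 0 h in the quasi-likelihood test of edgeR, with p adjusted by Benjamini-Hochberg over all 16482 genes tested and a threshold of 0.05. Of all genes, 60.7% differed, 32.8% being higher and 27.9% lower in DAOY, and of the 9, 3 were higher and 3 lower. Both subunits of the enzyme that starts glutathione synthesis were higher in DAOY. GCLC, the catalytic subunit of glutamate cysteine ligase, was higher by 0.84 ± 0.22 on the log2 scale (SE; edgeR adjusted p = 0.0031), and GCLM, the modifier subunit, by 1.07 ± 0.28 (edgeR adjusted p = 0.0034). NFE2L2 was also higher in DAOY, by 0.69 ± 0.20 (edgeR adjusted p = 0.0064). The genes that were lower in DAOY were HMOX1, OSGIN1 and NQO1. HMOX1, the inducible haem oxygenase, stood at 50.4, 81.3 and 85.5 CPM in the U87mg libraries and at 6.67, 9.56 and 41.5 CPM in those of DAOY, with no overlap, as was found downwards for 27.2% of all genes, and a log2 fold change of -1.92 ± 0.62 (edgeR adjusted p = 0.013). OSGIN1, an oxidative stress-induced growth inhibitor, stood at 6.99, 12.3 and 26.6 CPM in U87mg and 0.904, 1.55 and 4.87 CPM in DAOY, again with no overlap (log2 fold change -2.64 ± 0.61, edgeR adjusted p = 0.0012). NQO1 was lower by a log2 fold change of -1.57 ± 0.60 (edgeR adjusted p = 0.032), although the lines overlapped, at 349.9 to 640.3 CPM against 56.6 to 354 CPM. The cystine importer SLC7A11 (-1.08 ± 0.64, edgeR adjusted p = 0.16), TXNRD1 (-0.30 ± 0.40, adjusted p = 0.53) and SRXN1 (0.30 ± 0.44, adjusted p = 0.57), the sulfiredoxin that repairs overoxidised peroxiredoxins, did not pass. The values of HMOX1, NQO1 and OSGIN1 moved with single libraries. Without DAOY 0 h replicate 2, described below, the log2 fold change was -3.16 for HMOX1 (edgeR adjusted p = 0.00052) and -2.90 for NQO1 (edgeR adjusted p = 0.00032), and that of OSGIN1 was -3.60 (edgeR adjusted p = 0.00037). For HMOX1 and NQO1 the call was lost without other libraries. Without DAOY 0 h replicate 0 the values were -1.52 (edgeR adjusted p = 0.057) and -1.22 (adjusted p = 0.12), without DAOY 0 h replicate 1 they were -1.60 (adjusted p = 0.060) and -1.18 (adjusted p = 0.11), and NQO1 without U87mg 0 h replicate 1 gave -1.31 (adjusted p = 0.10). NQO1 also missed the threshold by DESeq2 (adjusted p = 0.053) and with only the groups compared in the fit (edgeR adjusted p = 0.070), and SLC7A11 was called with no filter on low counts (-1.08, edgeR adjusted p = 5.9e-05).

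Within several groups 1 library was the highest for most of the targets at once. DAOY 0 h replicate 2 held the highest value of its group for 8 of the 9 genes. NQO1 stood at 354 CPM there against 73.1 and 56.6 CPM in the other libraries, 5.46 times their mean, and HMOX1 at 41.5 CPM against 6.67 and 9.56 CPM, 5.12 times their mean. OSGIN1, SLC7A11, SRXN1 and TXNRD1 stood at 3.96, 2.98, 2.85 and 2.58 times the mean of the other libraries, GCLM and GCLC at 1.71 and 1.47 times, and NFE2L2 at 1.14 times. The enzymes and the importer stood 1.47 times or more above the other libraries, and the mRNA of the transcription factor stood closest to them.

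DAOY 2 h replicate 1 was also highest for 8 of 9, again with NQO1 first and NFE2L2 last. NQO1 stood at 311 CPM against 68.8 and 104 CPM, 3.60 times the mean of the others. SLC7A11 followed with 3.46 times, SRXN1 with 2.66, OSGIN1 with 2.34, TXNRD1 with 2.08, HMOX1 with 1.94, GCLM with 1.88 and GCLC with 1.38 times, and NFE2L2 with 1.11 times. Over the 9 genes, the log2 distances from the mean of the other libraries of the group in these 2 DAOY libraries, which belong to different exposures, had a Pearson r of 0.80, against 0.41 over all 16482 genes tested, and the genes share both libraries. Both libraries were picked for high values in these genes, so this r is a description.

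U87mg 2 h replicate 1 was highest for all 9 genes, with HMOX1 at 226 CPM against 52.2 and 55.5 CPM (4.19 times the mean of the others) and SLC7A11 at 402 CPM against 104 and 151 CPM (3.16 times). OSGIN1 stood at 2.37 times there, whereas NQO1 stood at 597 CPM against 434 and 360.4 CPM, so HMOX1 and SLC7A11 led in this library and NQO1 in the DAOY libraries. DAOY 8 h replicate 2 was highest for 8 of 9 and U87mg 8 h replicate 1 for 7 of 9.

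**Figure D1:**
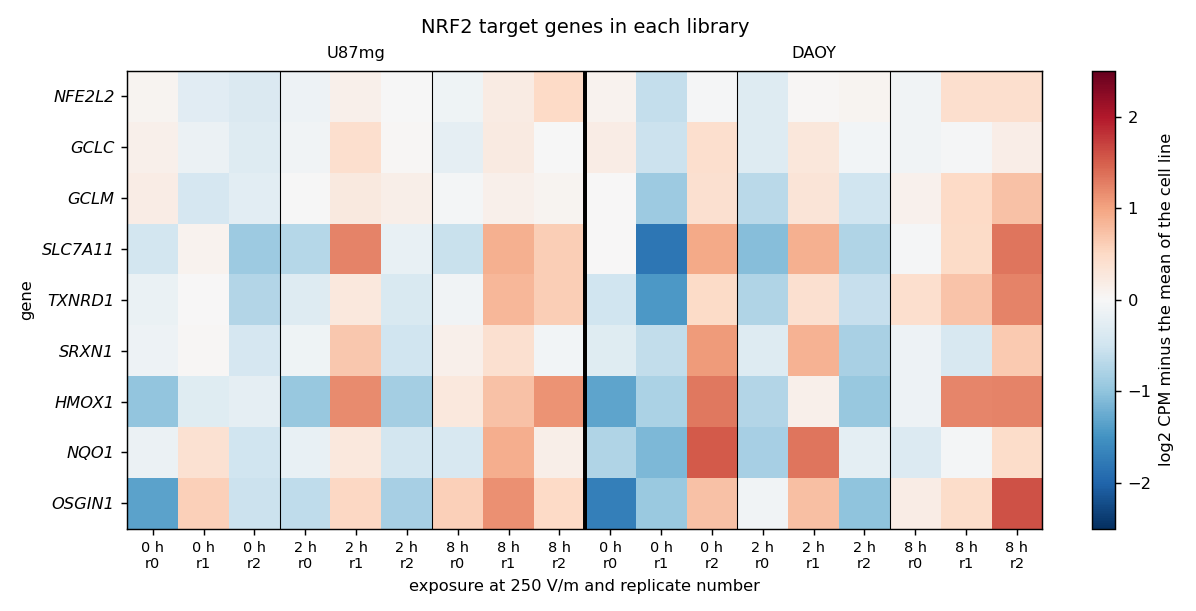
Log2 CPM of each NRF2 target gene minus its mean over the 9 libraries of the cell line (colour), for the 18 libraries in columns (exposure and replicate number r0 to r2) and the 9 genes in rows. Single columns are red across most genes in every group of DAOY and at 2 h and 8 h in U87mg, while the NFE2L2 and GCLC rows stay pale.

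As a measure over the whole set, the median log2 distance of the 9 genes from the other libraries of the group was 1.52 in DAOY 0 h replicate 2, 1.06 in DAOY 2 h replicate 1 and 0.61 in U87mg 2 h replicate 1, while that of all genes was at most 0.018. Distances above 1 were found for 6, 5 and 3 of the 9 genes, against 3.42%, 2.85% and 2.02% of all genes. The 3 libraries were picked for high values in these same genes, which by itself raises the distances of the 9, so these values are a description. Of the other lists, that of quinone and carbonyl detoxification and export had the most genes this far apart in the DAOY libraries. Among its 20 genes, 9 in DAOY 0 h replicate 2, 7 in DAOY 2 h replicate 1 and 1 in U87mg 2 h replicate 1 lay above 1. Of 7 genes of NADPH supply, 4 lay above 1 in DAOY 0 h replicate 2 and 0 in the other libraries named. Of 15 genes each, the thioredoxin and peroxiredoxin list had 0 above 1 in each of the 3 and the glutathione list 1 in each, and of 12 regulators of NRF2, 2, 0 and 0 lay above 1. Of 9 AP-1 and early response genes, 0 lay above 1 in any of the 3. Mitochondrial genes held 2.92% of the counts in DAOY 0 h replicate 2, the lowest share of the DAOY libraries, whose range over the other 0 h libraries was 5.59% to 5.70%. In DAOY 2 h replicate 1 the share was 4.25%. Of the immune and endothelial markers, 1 of 4 tested lay above 1 in each of the DAOY libraries, with medians of -0.074 and -0.28. In DAOY 0 h replicate 2, DAOY 2 h replicate 1 and U87mg 2 h replicate 1, the astroglial and glioma markers had medians of -0.26, -0.66 and -0.24 over 6 genes, and the cerebellar and medulloblastoma markers -0.30, 0.074 and 0.13 over 5. The part of cell state, RNA quality or cell makeup in these distances was not tested.

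In U87mg, 0 of 9 genes changed at 8 h against 0 h by edgeR at an adjusted p below 0.05, where 1.72% of all 14106 genes tested changed. The unadjusted p was below 0.05 for 4 of the 9 (15.9% of all genes), all 4 higher, and DESeq2 called 1, TXNRD1 (adjusted p = 0.039 by DESeq2), beside 3.79% of all genes. Without a filter on low counts, edgeR called 4 of 9, HMOX1, OSGIN1, SLC7A11 and TXNRD1, beside 2.06% of all genes. All 9 fold changes lay above 0, as did 49.9% of all genes, with a median of 0.44 against -0.0012 over all genes.

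HMOX1 stood at 50.4, 81.3 and 85.5 CPM at 0 h and at 120.5, 167 and 219 CPM at 8 h. It was the only one of the 9 whose groups did not overlap, as 7.65% of all genes did upwards, and its log2 fold change was 1.25 ± 0.48 (SE; edgeR adjusted p = 0.22). TXNRD1 stood at 692, 785 and 471 CPM at 0 h and at 738, 1387 and 1195 CPM at 8 h. Only 8 h replicate 0 lay within the range of the controls, and the log2 fold change was 0.80 ± 0.26 (edgeR adjusted p = 0.15), the smallest adjusted p of the 9.

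OSGIN1 stood at 6.99, 26.6 and 12.3 CPM at 0 h and at 26.8, 39.1 and 25.0 CPM at 8 h, with overlap through 0 h replicate 1 and a log2 fold change of 1.01 ± 0.44 (edgeR adjusted p = 0.28). SLC7A11 stood at 124, 181 and 91.2 CPM at 0 h and at 117, 317 and 262 CPM at 8 h, where replicate 0 stayed at the control level, with 0.85 ± 0.46 (edgeR adjusted p = 0.41). NFE2L2 had a log2 fold change of 0.44 ± 0.16 (edgeR adjusted p = 0.21), NQO1 of 0.40 ± 0.31 (adjusted p = 0.61) and SRXN1 of 0.36 ± 0.25 (adjusted p = 0.55). The glutathione ligase subunits had the smallest values, GCLM 0.22 ± 0.14 and GCLC 0.14 ± 0.17 (edgeR adjusted p = 0.52 and 0.77). Both ligase subunits overlapped their controls.

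**Figure D2:**
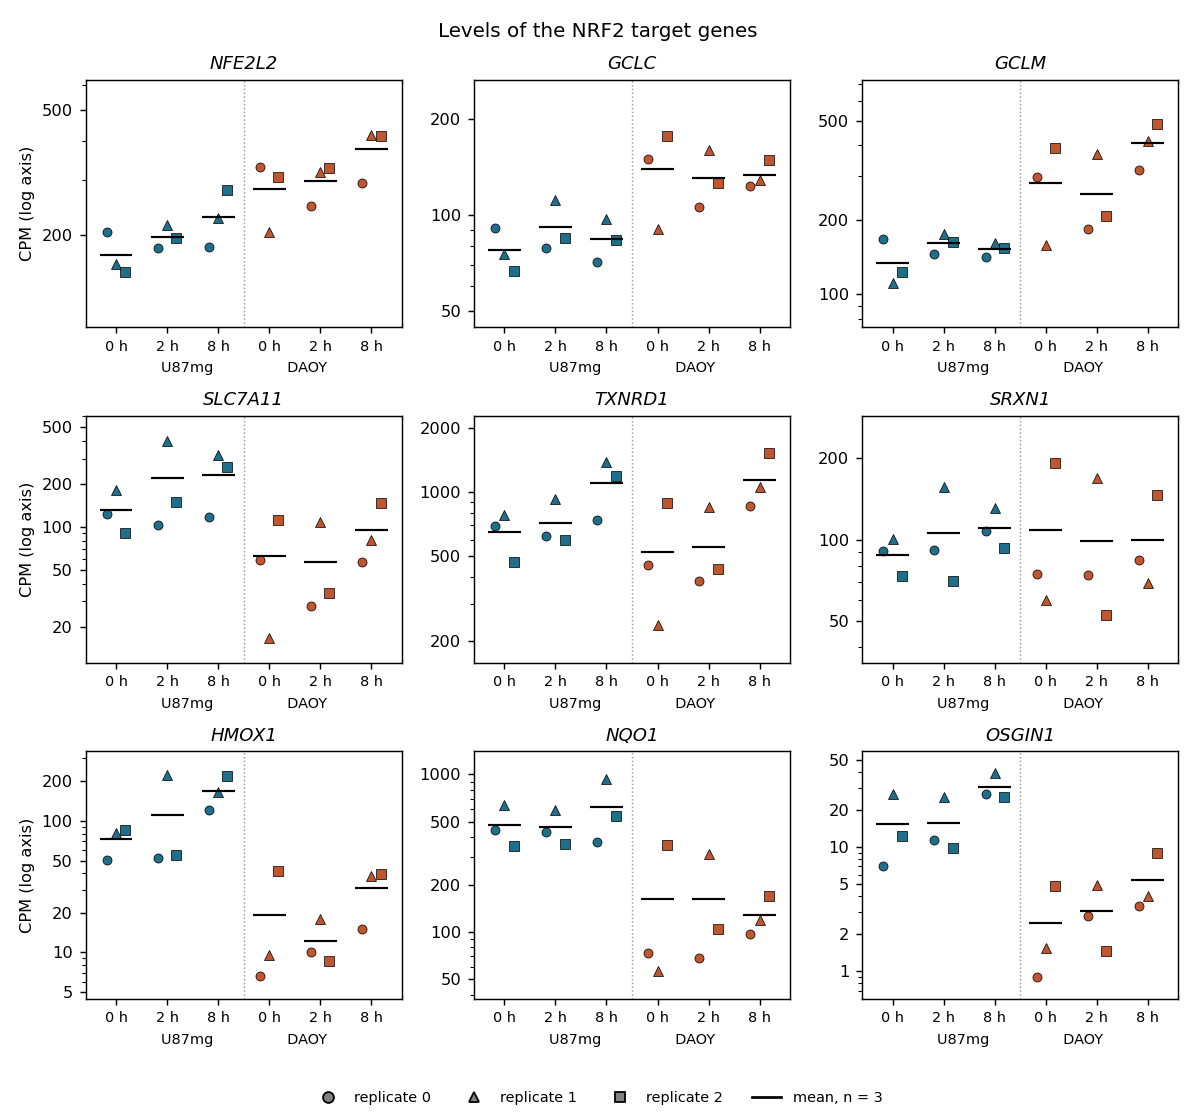
CPM (log axis) of the 9 genes in every library by exposure, U87mg in blue and DAOY in orange, with marker shapes for the replicate number and a bar at the mean of 3. HMOX1 in U87mg stands above all controls at 8 h, whereas in DAOY 1 control library reaches the 8 h values of most genes.

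At 2 h in U87mg, 0 of 9 genes changed by edgeR, 0 by DESeq2, and 0 had an unadjusted p below 0.05, where 0% of all genes changed by edgeR and 8.78% passed unadjusted. DESeq2 called 4 genes of the table in this comparison. The log2 fold changes were highest for SLC7A11 (0.75 ± 0.46, edgeR adjusted p = 0.50) and HMOX1 (0.63 ± 0.47, adjusted p = 0.53), and both rested on replicate 1, since without it they were -0.053 and -0.43. GCLM (0.28 ± 0.15), SRXN1 (0.28 ± 0.25), GCLC (0.25 ± 0.17), NFE2L2 (0.20 ± 0.16), TXNRD1 (0.16 ± 0.26) and OSGIN1 (0.027 ± 0.44) also had values above 0, and NQO1 had -0.034 ± 0.31. Of the 9, 8 were above 0, as were 47.9% of all genes. Without a filter on low counts, HMOX1 and SLC7A11 were called by edgeR, beside 0.292% of all genes. GCLM was called without U87mg 0 h replicate 0 (0.46, edgeR adjusted p = 0.044), a fit in which 8.38% of all genes were called.

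In DAOY, 0 of 9 genes changed at 8 h by edgeR and 0 by DESeq2. Of all 15396 genes tested, 5.85% changed by edgeR and 9.42% by DESeq2. The unadjusted p was below 0.05 for 1 of the 9 (22.7% of all genes), and 6 of the 9 fold changes lay above 0 (48.8% of all genes), with a median of 0.56 against -0.012 over all genes. Without a filter on low counts, edgeR called 1, TXNRD1, beside 3.66% of all genes. TXNRD1 stood at 454, 238 and 891 CPM at 0 h and at 863, 1054 and 1526 CPM at 8 h. The groups met only where 0 h replicate 2 passed 8 h replicate 0, and the log2 fold change was 1.15 ± 0.44 (SE; edgeR adjusted p = 0.16). OSGIN1 stood at 0.904, 1.55 and 4.87 CPM at 0 h and at 3.35, 4.07 and 8.88 CPM at 8 h, with 1.16 ± 0.63 (edgeR adjusted p = 0.31), on 7.73 to 87.6 estimated counts per library.

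HMOX1 stood at 6.67, 9.56 and 41.5 CPM at 0 h and at 15.2, 38.5 and 39.3 CPM at 8 h. The highest value of both groups was a control, and the log2 fold change was 0.71 ± 0.62 (edgeR adjusted p = 0.56). GCLM stood at 297, 158 and 389 CPM at 0 h and at 316, 415 and 486 CPM at 8 h, with 0.56 ± 0.33 (edgeR adjusted p = 0.36). SLC7A11 had 0.63 ± 0.65 (edgeR adjusted p = 0.63) and NFE2L2 0.45 ± 0.20 (adjusted p = 0.22).

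Values below 0 belonged to NQO1 (-0.30 ± 0.69, edgeR adjusted p = 0.85), SRXN1 (-0.11 ± 0.50, adjusted p = 0.94) and GCLC (-0.031 ± 0.23, adjusted p = 0.96). NQO1 stood at 97.0, 119.6 and 169.9 CPM at 8 h, above 2 controls and below the third at 354 CPM.

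At 2 h in DAOY, 0 of 9 genes changed by edgeR, 0 by DESeq2, and 0 had an unadjusted p below 0.05, where 0% of all genes changed by edgeR and 2.75% passed unadjusted. DESeq2 called 1 gene of the table in this comparison. The log2 fold changes ran from -0.63 ± 0.63 for HMOX1 to 0.36 ± 0.64 for OSGIN1, and 4 of 9 were above 0, as were 50.3% of all genes. The adjusted p of each of the 9 was 0.999 by edgeR.

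Because DAOY 0 h replicate 2 and DAOY 2 h replicate 1 stood apart in these genes, the DAOY comparisons were also fitted without them, on 7 libraries. The 2 libraries were picked for their values in the same genes, which by itself lowers the 0 h and 2 h means, so these values are a description. At 8 h against 0 h all 9 fold changes were then above 0, with a median of 1.02 against -0.00027 over all genes, and 0 of 9 changed, beside 0.555% of all genes. The log2 fold change of NQO1 was 1.02 ± 0.28 (edgeR adjusted p = 0.11) in place of -0.30, that of SRXN1 0.60 ± 0.32 (adjusted p = 0.35) and that of GCLC 0.19 ± 0.23 (adjusted p = 0.72). TXNRD1 had 1.77 ± 0.33 (edgeR adjusted p = 0.053), HMOX1 1.95 ± 0.43 (adjusted p = 0.074) and OSGIN1 2.13 ± 0.58 (adjusted p = 0.11). At 2 h against 0 h, HMOX1 had 0.20 ± 0.45 in place of -0.63, and 0 of 9 changed. Against U87mg at 0 h, 8 of 9 genes then differed in place of 6, beside 56% of all genes, with TXNRD1 at -0.93 ± 0.34 (edgeR adjusted p = 0.027) and SLC7A11 at -1.84 ± 0.63 (adjusted p = 0.021) added, and SRXN1 had -0.40 ± 0.33 (adjusted p = 0.31). HMOX1 had -3.16 ± 0.63 and NQO1 -2.90 ± 0.40 there (edgeR adjusted p = 0.00051 and 1.8e-05).

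**Figure D3:**
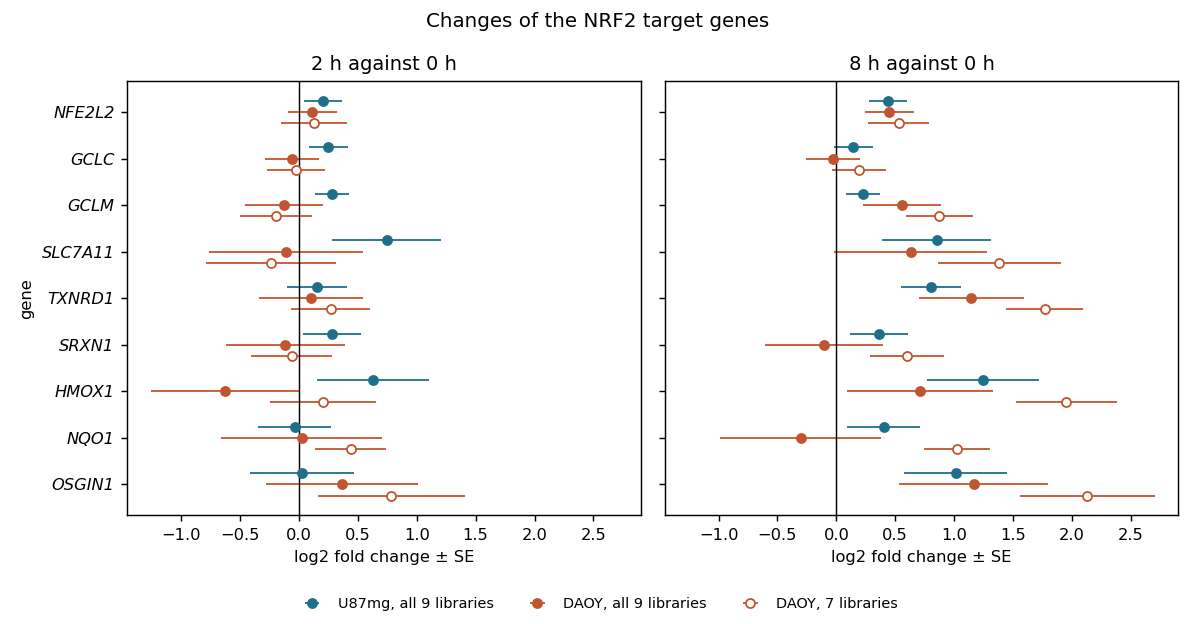
Log2 fold change with its SE for the 9 genes at 2 h and 8 h against 0 h in U87mg (blue), in DAOY with all 9 libraries (filled orange) and in DAOY with 7 libraries (open orange). At 8 h the filled points of NQO1, SRXN1 and GCLC in DAOY lie below 0 and their open points above it.

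Between 2 h and 8 h, 0 of 9 genes changed in either line by edgeR, where 0.822% of all genes changed in U87mg and 1.58% in DAOY. The unadjusted p was below 0.05 for 2 of 9 in U87mg (19.5% of all genes) and 1 of 9 in DAOY (18.7%). DESeq2 called 0 in each, beside 3.75% and 5.74% of all genes. Without a filter on low counts, edgeR called 3 of 9 in U87mg and 1 of 9 in DAOY, beside 2.55% and 2.02% of all genes. TXNRD1 had a log2 fold change of 0.65 ± 0.26 in U87mg (edgeR adjusted p = 0.19) and of 1.04 ± 0.44 in DAOY (adjusted p = 0.24), where its groups did not overlap, as 13.7% of all genes did upwards. The difference between the lines in their changes was tested as an interaction over all 18 samples. It passed for 0 of 9 genes at 2 h and 0 of 9 at 8 h by edgeR and by DESeq2, with 0 unadjusted p below 0.05, where 0% and 0.0121% of all genes passed by edgeR and 6.4% and 8.88% passed unadjusted. By DESeq2, 0.0121% and 0.425% of all genes passed. For TXNRD1 at 8 h the difference, DAOY minus U87mg, was 0.35 ± 0.56 (edgeR adjusted p = 0.94), so no difference between the lines was detectable with this spread. Over the 9 genes the median difference at 8 h was -0.17, with 4 above 0. Without DAOY 0 h replicate 2 and DAOY 2 h replicate 1 all 9 differences lay above 0, with a median of 0.61 against -0.026 over all genes. Leaving out a 0 h library picked for high values in these genes by itself raises the differences, so they are a description. TXNRD1 had 0.95 ± 0.44 (edgeR adjusted p = 0.57), the only one of the 9 with an unadjusted p below 0.05, as 1463 of all 16901 genes had. In that fit 0 of 9 passed, beside 0.00592% of all genes.

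The partners of NRF2 were examined next in a list of 12 regulators. They include the small MAF genes, whose proteins NRF2 needs to bind DNA and which without a partner form repressive dimers. In DAOY at 8 h, 3 of the 12 rose, MAFF, MAFG and MAFK, and 0 fell (5.85% of all genes changed). MAFG stood at 50.1, 49.8 and 54.1 CPM at 0 h, at 56.2, 66.1 and 45.1 CPM at 2 h and at 101, 119 and 119 CPM at 8 h. The 8 h libraries stood clear of all others, with a log2 fold change of 1.16 ± 0.16 (SE; edgeR adjusted p = 0.0081).

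MAFF stood at 27.3, 25.1 and 30.2 CPM at 0 h and at 44.3, 50.9 and 66.8 CPM at 8 h (0.99 ± 0.21, edgeR adjusted p = 0.027). MAFK stood at 7.91, 10.5 and 22.1 CPM at 0 h and at 30.0, 30.6 and 38.8 CPM at 8 h (1.31 ± 0.32, edgeR adjusted p = 0.043). Neither gene had overlapping groups between 0 h and 8 h, and the control with the highest MAFK was again replicate 2. The share of all genes without overlap in this comparison is not given here. At 2 h, MAFF stood at 56.1, 38.5 and 38.4 CPM and MAFK at 22.3, 25.9 and 23.4 CPM. Both were thus above every 0 h library at 2 h already, although 0 of the 12 regulators changed there by edgeR or DESeq2. Without DAOY 0 h replicate 2 and DAOY 2 h replicate 1, the log2 fold changes were 1.21 for MAFG and 1.87 for MAFK (edgeR adjusted p = 0.047 for each) and 1.07 for MAFF (adjusted p = 0.083).

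In U87mg, 1 of the 12 rose at 8 h and 0 fell. MAFK stood at 20.5, 26.6 and 26.8 CPM at 0 h and at 51.6, 32.9 and 47.4 CPM at 8 h, with no overlap and 0.86 ± 0.18 (edgeR adjusted p = 0.039). MAFG had 0.54 ± 0.15 (edgeR adjusted p = 0.11, and 0.045 by DESeq2) and MAFF 0.41 ± 0.27 (adjusted p = 0.51). The adaptor KEAP1 was looked at after its values were seen, for its role, and had 0.32 ± 0.23 in U87mg and -0.051 ± 0.28 in DAOY at 8 h (edgeR adjusted p = 0.57 and 0.95).

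**Figure D4:**
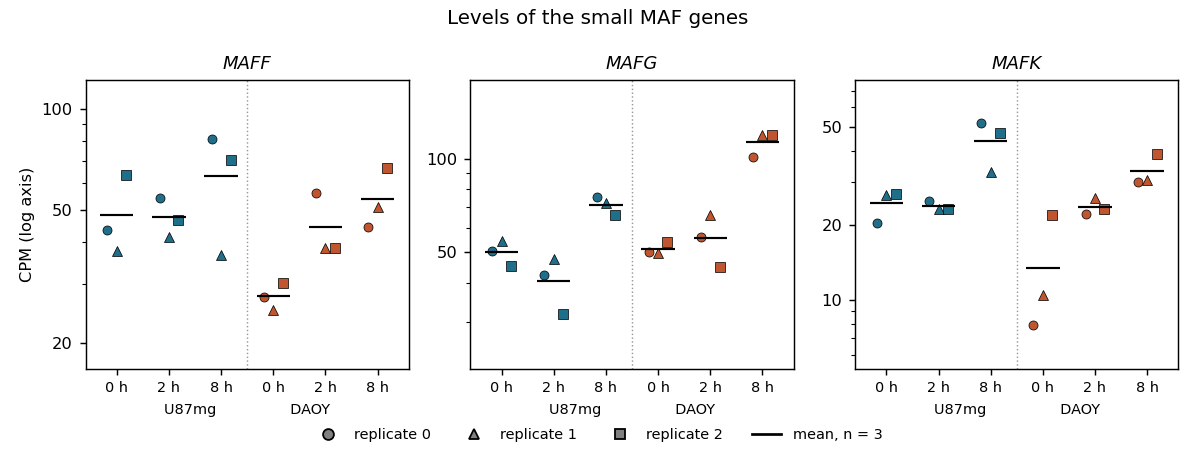
CPM (log axis) of MAFF, MAFG and MAFK in every library by exposure, U87mg in blue and DAOY in orange, with marker shapes for the replicate number and a bar at the mean of 3. MAFG at 8 h in DAOY, at 101 to 119 CPM, stands above the 0 h and 2 h libraries, and MAFK at 8 h stands above 0 h in both lines.

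Other genes of the pathway were taken from 9 lists of 112 genes in all. Of these, 104 were tested in U87mg and 109 in DAOY. At 2 h, 0 changed in either line by edgeR or DESeq2, with an unadjusted p below 0.05 for 10 in U87mg (8.78% of all genes) and 7 in DAOY (2.75%). At 8 h by edgeR, 4 rose and 0 fell in U87mg and 6 rose and 2 fell in DAOY, which is 3.85% and 7.34% of those tested beside 1.72% and 5.85% of all genes. DESeq2 called 8 and 13 of them, beside 3.79% and 9.42% of all genes. In glutathione synthesis and use, 1 of 13 genes rose in U87mg, and in DAOY 0 of 15 changed by edgeR or DESeq2 or had an unadjusted p below 0.05. The gene that rose was CHAC1, whose enzyme degrades glutathione, at 3.89, 4.29 and 4.60 CPM at 0 h and 14.4, 7.24 and 10.6 CPM at 8 h, with no overlap (log2 fold change 1.36 ± 0.26, edgeR adjusted p = 0.029).

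ATF4, the transcription factor of the amino acid stress response, also drives SLC7A11. On a list of 12 genes of that response, ATF4 itself rose at 8 h in both lines and the other 11 did not pass in either by edgeR. DESeq2 called ATF4 in both lines and also CEBPB, a transcription factor, in DAOY (0.71, adjusted p = 0.030 by DESeq2). CHAC1, which rose in U87mg, is also a target of ATF4 and was counted under glutathione above. ATF4 had 0.85 ± 0.19 in U87mg (edgeR adjusted p = 0.046) and 1.00 ± 0.16 in DAOY (adjusted p = 0.011), with no overlap in either. It stood at 223, 167 and 189 CPM at 0 h and 389, 234 and 397 CPM at 8 h in U87mg, and at 136, 161 and 176 CPM and 297, 320 and 317 CPM in DAOY.

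Of 9 AP-1 and early response genes, 1 rose in U87mg and 2 in DAOY at 8 h by edgeR. DESeq2 called 3 and 4 of the 9, beside 3.79% and 9.42% of all genes. EGR1, an early response transcription factor, had 1.66 ± 0.38 in U87mg (edgeR adjusted p = 0.049), although 8 h replicate 1 at 28.1 CPM lay among the controls at 23.5 to 28.9 CPM, and 1.17 ± 0.29 in DAOY (adjusted p = 0.043). At 2 h in U87mg, EGR1 stood at 77.8, 83.7 and 67.3 CPM, above every 0 h library, and was not called by edgeR or DESeq2. FOSL1, an AP-1 subunit, had 0.94 ± 0.21 in DAOY at 8 h (edgeR adjusted p = 0.028).

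In DAOY at 8 h, 1 of 15 genes of the thioredoxin and peroxiredoxin system fell, TXNRD3 (-1.08 ± 0.25, edgeR adjusted p = 0.034), the thioredoxin glutathione reductase. Of 10 genes of haem and iron handling, 1 fell, FECH, the ferrochelatase that completes haem synthesis (-0.75 ± 0.19, edgeR adjusted p = 0.043). In U87mg, 0 of 15 and 0 of 9 genes of these lists changed by edgeR, with an unadjusted p below 0.05 for 1 and 0 and a call by DESeq2 for 1 and 0. NADPH supply (6 and 7 genes tested in U87mg and DAOY), quinone and carbonyl detoxification and export (20 and 20) and superoxide and peroxide removal (8 and 9) had 0 genes that changed at 8 h in either line by edgeR. In U87mg, 0, 3 and 0 genes of these lists passed unadjusted and DESeq2 called 0 in each, and in DAOY 0, 3 and 1 passed unadjusted and DESeq2 called 0, 2 and 0. Among the markers, SLC1A3 and ZIC2 rose in DAOY at 8 h, by 1.76 ± 0.28 and 0.97 ± 0.25 (edgeR adjusted p = 0.012 and 0.049), and the part of this in the other changes was not tested.

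Several of these calls were close to the threshold: of 15 other fits tried in U87mg and 16 in DAOY, TXNRD3 and FECH lost theirs in 10 and 12, EGR1 in 10 in each line, MAFK and ATF4 in U87mg in 9 each, MAFF in DAOY in 9, MAFK and FOSL1 in DAOY and CHAC1 in 8 each, ATF4 in DAOY in 2 and MAFG in 1, all without a change of direction. MAFG missed the threshold without DAOY 8 h replicate 1 (1.13, edgeR adjusted p = 0.054), and ATF4 in DAOY without 8 h replicate 1 (0.99, edgeR adjusted p = 0.059) or 8 h replicate 2 (1.00, edgeR adjusted p = 0.052). In U87mg, leaving out 0 h replicate 1 or 2 or 8 h replicate 0 or 2 each ended the calls of MAFK, ATF4, CHAC1 and EGR1, as 0 h replicate 0 did for EGR1, with edgeR adjusted p from 0.056 to 0.27. In DAOY, leaving out 8 h replicate 1 or 2 ended those of MAFF, MAFK, FOSL1, EGR1, TXNRD3 and FECH. Leaving out 8 h replicate 0 ended those of MAFK, FOSL1, TXNRD3 and FECH, and each 0 h library ended those of 4 or more of the 6, with edgeR adjusted p from 0.050 to 0.16 over these fits.

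Single transcripts were tested because gene sums can hide an isoform. Of the 69 transcripts of the 9 genes, 36 in U87mg and 35 in DAOY passed the filter on low counts, and 0 changed at 2 h or 8 h by edgeR, as did 0% of all 40613 and 41336 transcripts tested. At 2 h the unadjusted p was below 0.05 for 4 and 0 of them, where 5.56% and 3.07% of all transcripts passed. At 8 h the unadjusted p was below 0.05 for 5 and 2 of them, where 6.3% and 10.3% of all transcripts passed. By DESeq2, 1 changed, the TXNRD1 transcript ENST00000526691 in DAOY at 8 h (adjusted p = 0.0085), which made up 8.12% of the TXNRD1 TPM at 0 h and 13.9% at 8 h. The share of all transcripts called by DESeq2 is not given here, so this call cannot be set against it. Kallisto divides reads between transcripts that share exons, so shares of transcripts are less certain than gene sums.

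TXNRD1 has start sites near both windows shown above. Transcripts starting within 500 bases of the upstream site made up 22.0% ± 16.2 (SD, n = 3) of the gene's TPM at 0 h and 26.8% ± 8.62 at 8 h in U87mg, and 31.6% ± 15.7 and 39.7% ± 7.15 in DAOY. Those within 500 bases of the downstream site made up 64.2% ± 26.6 and 63.4% ± 16.4 in U87mg and 57.7% ± 27.0 and 50.1% ± 13.5 in DAOY. On the TPM scale the upstream group had 90.7 ± 82.3 at 0 h and 209 ± 72.6 at 8 h in DAOY, and the downstream group 133 ± 84.4 and 256 ± 65.8. The shares at 0 h and 8 h differed by less than the SD at 0 h for both groups and both lines.

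Over all 18 libraries, after the mean of each cell line was subtracted from log2 CPM, the 36 pairs among the 9 genes had Pearson r from 0.30 (NFE2L2 and SRXN1) to 0.90 (TXNRD1 and SLC7A11), with a median of 0.72, and 30 pairs lay above 0.5. These r describe libraries that share exposure groups and depth, and they have no p. The share of all gene pairs above 0.5 was not computed, so the count of 30 cannot be set against it. Among all 16482 genes, the one most like NQO1 was ALDH3A2, a fatty aldehyde dehydrogenase (r = 0.94). MGST1, a microsomal glutathione transferase, and RBM20 followed (r = 0.92 and 0.91). The gene most like SRXN1 was GSR, the glutathione reductase (r = 0.92), followed by the aldo-keto reductase AKR1C1 (r = 0.87), whose reads are hard to tell from those of its close paralogs. TRIM16L, a paralog of TRIM16 that was on the list of detoxification genes, was most like HMOX1 (r = 0.86) and among the 3 most like OSGIN1 (r = 0.92) and TXNRD1 (r = 0.92), and TRIM16 was most like OSGIN1 (r = 0.94). FOXF1 followed AKR1C1 for SRXN1 (r = 0.86). HSPB8 and OSGIN1 followed TRIM16L for HMOX1 (r = 0.86 and 0.85), and AIFM2 followed it for OSGIN1 (r = 0.89). SLC6A6 and CPOX came ahead of TRIM16L for TXNRD1 (r = 0.95 and 0.94). The genes closest to GCLM were RP11-166D19, SRGAP1 and CLIP4 (r = 0.93, 0.91 and 0.90). Those closest to GCLC were PSMA3, ATP6V1A and NMD3 (r = 0.93, 0.92 and 0.91). SLC7A11 was closest to CYP1B1, YAE1D1 and TXNRD1 (r = 0.91, 0.91 and 0.90). For NFE2L2 the closest genes were WDFY3, FBXO30 and TNKS (r = 0.97, 0.96 and 0.96), of which none was on any list used here.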

How the data were processed

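RNA of 18 samples was sequenced by the authors as poly-A selected, stranded, single-end libraries. Per the study's methods and the submitters' processing notes, reads were trimmed with the FASTQC Toolkit and pseudo-aligned with Kallisto 0.43.0 to GENCODE transcripts; whether the strand option was set is not given in the sources used here, so overlapping antisense genes and near-identical paralogs are uncertain. The authors deposited 1 table with estimated counts and TPM per transcript and sample; its columns of their own 8 Sleuth 0.28.1 comparisons (q-values, p-values and fold changes) were not used. The labels and the study's methods differ on how many cells the aggregates were formed from.

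Here, transcript values were summed by gene name. Rounded sums were filtered with filterByExpr, scaled by TMM and tested with edgeR 4.0.16 (glmQLFit, glmQLFTest, R 4.3.3) on the 9 samples of a line, or on all 18 for comparisons between lines, with Benjamini-Hochberg adjustment over all genes tested. Log2 CPM used a prior count of 2. Replicate numbers were not used as a block. Alternatives were DESeq2 1.42.0, DESeq2-type size factors, fits with no filter or with a minimum of 10 counts per sample, limma 3.58.1 on log2(TPM + 1), protein-coding transcripts only, a replicate block, other sets of samples in the fit, and each replicate left out. The fit without 2 DAOY libraries was chosen after seeing the data. Scripts were tested on data simulated with the estimated spread of each line, with 200 genes changed 2-fold at 8 h. The main fit called 119 of the 200 (59.5%) in U87mg and 38 (19%) in DAOY. A count of 0 genes called therefore does not show that 2-fold changes were absent. In the data, 243 and 900 genes were called at 8 h, more than the 200 changed in each simulation, so recovery in the data can differ from these shares. The members, the 9 other gene lists and 3 marker lists were chosen with earlier results of these data known. All members were named, up to 3 called genes per list and comparison with 0 h, and up to 3 genes most like each member. Coordinates came from GENCODE 29 (all 69 transcripts matched) and promoters from RefSeq.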

Additional observations from a re-analysis of the deposited data

How the results depend on the processing

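The count of the 9 genes called between the lines at 0 h was 6, 5 by DESeq2 (without NQO1), 5 with only the groups compared, 7 with no filter (with SLC7A11 added) and from 4 to 8 with each replicate left out. Without a filter on low counts, edgeR called 2 in U87mg at 2 h (HMOX1 and SLC7A11), 4 at 8 h (HMOX1, OSGIN1, SLC7A11 and TXNRD1) and 3 at 8 h against 2 h, and in DAOY 1 at 8 h and 1 at 8 h against 2 h (TXNRD1 in each); the cause was not tested. DESeq2 called 1 in U87mg at 8 h and 1 transcript in DAOY at 8 h. Without each replicate in turn, the count in U87mg at 2 h ran from 0 to 1. Whether replicate numbers pair the samples was not settled. The correlations of same-numbered samples ran from -0.18 to 0.40 in DAOY and from -0.14 to 0.21 in U87mg. Their medians, 0.058 and 0.12, lay above those for different numbers, -0.14 and -0.031, but the highest in each line, 0.41 and 0.21, joined different numbers. Between 2 h and 8 h, same-numbered samples had 0.40, 0.072 and 0.10 in DAOY and 0.21, 0.12 and 0.15 in U87mg. Different numbers there ran from -0.23 to 0.14 and from -0.13 to -0.011. Same-numbered correlations with a 0 h sample ran from -0.18 to 0.28 in DAOY and from -0.14 to 0.17 in U87mg. With the replicate block 0 of 9 changed in each comparison with 0 h, and SRXN1 in DAOY at 2 h turned to 0.040. The block ended the calls at 8 h of MAFK, ATF4, CHAC1 and EGR1 in U87mg (edgeR adjusted p = 0.071, 0.069, 0.056 and 0.086) and of MAFF, FOSL1, TXNRD3 and FECH in DAOY (0.053, 0.055, 0.055 and 0.082), each in the same direction.

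In the comparisons with 0 h and between the lines at 0 h, values of genes that were not called turned sign as follows. On log2(TPM + 1), limma gave -0.0046 for OSGIN1 (U87mg 2 h), -0.095 for GCLC (U87mg 8 h), 0.069, 0.14 and 0.023 for GCLC, GCLM and SLC7A11 (DAOY 2 h), and 0.085 and 0.048 for GCLC and NQO1 (DAOY 8 h). Without DAOY 0 h replicate 2 and DAOY 2 h replicate 1, HMOX1 had 0.20 (DAOY 2 h), GCLC, NQO1 and SRXN1 had 0.19, 1.02 and 0.60 (DAOY 8 h), and SRXN1 had -0.40 (DAOY against U87mg at 0 h). In the same fit, the difference of the 8 h changes turned from -0.17 to 0.035 for GCLC, from -0.53 to 0.68 for HMOX1, from -0.69 to 0.61 for NQO1, from -0.21 to 0.52 for SLC7A11 and from -0.45 to 0.23 for SRXN1. As said above, the choice of the libraries left out by itself raises these differences. With each replicate left out in turn, log2 fold changes in U87mg ran from -0.43 to 0.97 (HMOX1), -0.27 to 0.24 (NQO1), -0.53 to 0.68 (OSGIN1), -0.053 to 1.08 (SLC7A11), -0.12 to 0.51 (SRXN1) and -0.088 to 0.32 (TXNRD1) at 2 h and from -0.019 to 0.68 (NQO1) at 8 h. In DAOY they ran from -0.30 to 0.15 (GCLC), -0.49 to 0.18 (GCLM), -1.03 to 0.60 (HMOX1), -0.071 to 0.24 (NFE2L2), -0.87 to 1.35 (NQO1), -0.15 to 1.31 (OSGIN1), -0.97 to 0.63 (SLC7A11), -0.74 to 0.58 (SRXN1) and -0.33 to 0.72 (TXNRD1) at 2 h and from -0.26 to 0.19 (GCLC), -0.71 to 1.02 (NQO1) and -0.47 to 0.60 (SRXN1) at 8 h. Between the lines they ran from -0.41 to 0.58 (SRXN1) and -0.93 to 0.033 (TXNRD1) at 0 h and from -0.0095 to 0.95 (TXNRD1) for the difference of the 8 h changes.

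All 6 genes called between the lines kept their direction under every alternative. Each group held 3 samples, in which single libraries set much of the spread, and OSGIN1 in DAOY had as few as 7.73 estimated counts in a library.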
